A study of Mus musculus with 19 samples.

Results

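Cerebella of mice in which Gsα, the stimulatory G protein subunit encoded by Gnas, was deleted conditionally differed in their level of mature neuron RNA. The knockout libraries were therefore divided by how much Gabra6, a GABA-A receptor subunit of mature cerebellar granule neurons, each still held. Libraries with at least 50 FPKM of Gabra6 were taken as high residual and those under 20 FPKM as low residual. FPKM is a fragment count scaled to transcript length and library size. Of the 16 knockout libraries, among 19 in the series, 6 were high residual and 10 were low residual. High residual libraries were 2 of the 8 Olig1-Gnas and 4 of the 8 hGFAP-Gnas animals, and low residual libraries were 6 Olig1-Gnas and 4 hGFAP-Gnas animals.

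All animals were C57BL/6 mice at postnatal day 60, and RNA came from whole cerebellum. Olig1-Gnas mice carried a conditional Gsα knockout driven by Olig1Cre, a recombinase line of the oligodendrocyte lineage and other progenitors. hGFAP-Gnas mice carried the same kind of knockout driven by hGFAPCre, which acts in early neural progenitors. The Ctrl group was 3 wild type mice. In each library the deletion was limited to cells with a history of Cre and their progeny, and every other cell kept the gene.

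The cerebellar cortex holds granule neurons, by far its most abundant cells, together with Purkinje cells, inhibitory interneurons, Bergmann glia, and oligodendrocytes in the white matter. Granule neurons arise after birth from progenitors that divide in answer to Sonic hedgehog, a ligand secreted by Purkinje cells, and Gsα restrains this pathway through cAMP and protein kinase A. When the restraint is lost the progenitors can form a hedgehog medulloblastoma, a tumor that displaces the normal layers. In bulk RNA of this kind, fewer cells of a type and less RNA per cell cannot be told apart.

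Gabra6 was at 224, 370 and 468 FPKM in the Ctrl libraries. Among high residual libraries it was at 75.7 FPKM in Olig1-Gnas 7, 59.8 in Olig1-Gnas 8, 261 in hGFAP-Gnas 1, 128 in hGFAP-Gnas 2, 159 in hGFAP-Gnas 7 and 59.9 in hGFAP-Gnas 8. In the low residual Olig1-Gnas libraries 1 to 6 it was at 1.51, 0.542, 1.62, 0, 3.27 and 0.894 FPKM, and in hGFAP-Gnas 3 to 6 at 10.1, 4.48, 11.4 and 12.4 FPKM. The libraries just inside the upper limit were Olig1-Gnas 8 at 59.8 and hGFAP-Gnas 8 at 59.9 FPKM, and those nearest below it were hGFAP-Gnas 6 at 12.4 and hGFAP-Gnas 5 at 11.4 FPKM. No library lay between the limits. Even the low residual hGFAP-Gnas libraries held more Gabra6 than any low residual Olig1-Gnas library, so the 2 classes are not at the same levels in the 2 models. The authors' tables place Gabra6 on chromosome 11, from 42119938 to 42134553 in mm9.

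**Figure D1:**
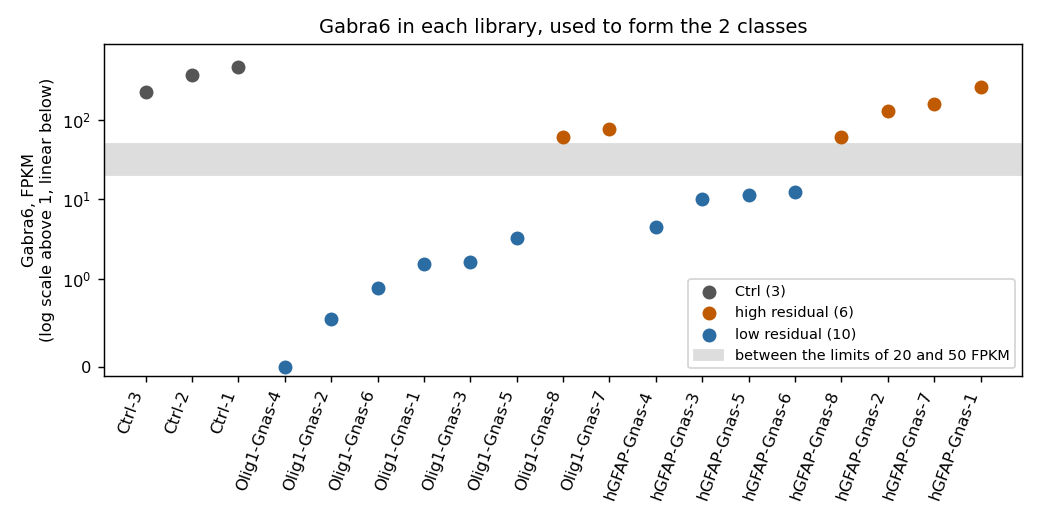
Gabra6 in FPKM (vertical axis, logarithmic above 1 FPKM and linear below) in each of the 19 libraries, ordered by level within Ctrl, Olig1-Gnas and hGFAP-Gnas. Points are single libraries, the grey band spans 20 to 50 FPKM, and the 6 high residual libraries sit between 59.8 and 261 FPKM against 0 to 12.4 FPKM in the 10 low residual libraries.

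Several libraries stood apart. hGFAP-Gnas 1 had the highest Gabra6 of the knockouts, the lowest FPKM sum of the series at 505739 (the highest was 689165) and Mki67, a marker of dividing cells, at 2.70 FPKM, where the other 15 knockout libraries had 43.0 to 264. Olig1-Gnas 3 and 4 had the lowest levels of astrocyte markers, and Olig1-Gnas 6 and hGFAP-Gnas 4 held more oligodendrocyte RNA than the other low residual libraries of their model. Shallower sequencing, inferred from the step size of low values, marked 4 of the 6 low residual Olig1-Gnas libraries and neither high residual one, while in hGFAP-Gnas each class had 2 shallower and 2 deeper libraries. Y-linked signal was present in 1 of 2 high and 1 of 6 low residual Olig1-Gnas libraries, and in 4 of 4 high and 3 of 4 low residual hGFAP-Gnas libraries. Gnas itself was listed at 651, 798 and 0 FPKM in Ctrl. It was at 0 in 5 of the 6 high residual libraries and at 121 FPKM in Olig1-Gnas 7. It was listed at 0 in 5 of the 10 low residual libraries and at 24.0 to 117 FPKM in the others. With a wild type library at 0, these zeros can be failed estimates, and Gnas checks no label here.

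With the Cre model as a term, 14386 genes were compared between the classes on log2(FPKM + 1). The libraries were chosen by Gabra6 in the same data, so differences and counts are given as a description and no p-value is given for any gene. At an adjusted p under 0.05 (limma), 1550 genes differed, 10.8% of those compared. Of these, 1379 were higher in high residual tissue (9.59%) and 171 were lower (1.19%). At least 2-fold differences made up 787 of the higher genes and 7 of the lower ones. Every high residual library lay above every low residual one for 569 genes and below for 45. The median over all genes was -0.06. Without hGFAP-Gnas 1, 1258 genes differed, 1103 of them higher. Without hGFAP-Gnas 8, 2428 differed, 1760 higher and 668 lower.

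Mature granule neuron and Purkinje cell genes led the genes that were higher in high residual tissue. Besides Gabra6, the largest differences belonged to Cbln3 (4.29 ± 0.42, log2 difference ± SE), Calb1 (4.20 ± 0.34), Gng13 (4.06 ± 0.55), Car8 (3.82 ± 0.30), Rnf112 (3.81 ± 0.37), Snhg11 (3.72 ± 0.78), Gsbs (3.71 ± 0.28), Chn2 (3.68 ± 0.31) and Gabrd (3.64 ± 0.31). Gsbs, which RefSeq now names Ppp1r17, encodes the G-substrate of Purkinje cells, and Gng13 a G protein gamma subunit. The classes overlapped for Snhg11, a long noncoding RNA host gene, where low residual Olig1-Gnas 6 had 78.8 FPKM against a lowest high residual value of 77.3 FPKM. They did not overlap for the other genes in this group.

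Among mature granule neuron genes, 13 of 14 compared were higher in high residual tissue and none was lower, beside 9.59 and 1.19% of all genes. The median difference of the list was 2.23, against -0.06 over all genes, and 2.03 without hGFAP-Gnas 1. Cbln3, a secreted synapse organizer of granule neurons, was at 101 and 98.5 FPKM in Olig1-Gnas 7 and 8. It was at 296, 165, 227 and 83.5 FPKM in hGFAP-Gnas 1, 2, 7 and 8. Low residual Olig1-Gnas libraries held 0.0842 to 4.03 FPKM of it and low residual hGFAP-Gnas libraries 6.16 to 21.5 FPKM, against 432 to 459 FPKM in Ctrl. No high residual library reached the Ctrl range for Cbln3. Gabrd, the delta subunit of the extrasynaptic GABA-A receptor of granule neurons, was at 19.8 to 97.8 FPKM (median 44.4) in high residual and 0.0757 to 6.60 FPKM (median 1.41) in low residual libraries. Chn2, a Rac GTPase activating protein, was at 64.9 to 331 FPKM (median 120) against 1.68 to 20.9 FPKM (median 4.67). For both genes hGFAP-Gnas 1 lay within the Ctrl range, which was 92.8 to 130 FPKM for Gabrd and 282 to 351 FPKM for Chn2. Rbfox3, which encodes the general neuronal marker NeuN, was the 1 member of the list that was not called.

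As a share of the Ctrl mean, the median level of the 14 granule neuron genes was 26.6% in Olig1-Gnas 7 and 27.4% in Olig1-Gnas 8. In hGFAP-Gnas 1, 2, 7 and 8 it was 87.5, 40.1, 55.2 and 24.4%. Low residual libraries retained less, with 1.2 to 7.6% for the Olig1-Gnas animals and 4.2 to 10.9% for the hGFAP-Gnas animals. The lowest share among high residual libraries, in hGFAP-Gnas 8, thus lay above the highest among low residual libraries, in hGFAP-Gnas 4.

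Purkinje cell genes, which the rule did not name, were all called: 13 of 13 compared were higher, beside 9.59% of all genes. Their median was 2.98 (2.85 without hGFAP-Gnas 1). Calb1, the calcium-binding protein calbindin, was at 54.2 and 71.5 FPKM in Olig1-Gnas 7 and 8, compared with 214, 151, 145 and 62.3 FPKM in hGFAP-Gnas 1, 2, 7 and 8. Low residual libraries held 0.0476 to 2.55 FPKM of Calb1 in Olig1-Gnas and 5.53 to 15.2 FPKM in hGFAP-Gnas, and Ctrl 226 to 453 FPKM. All 6 high residual libraries lay below the lowest Ctrl value and above the highest low residual one. Car8, an inhibitor of the inositol trisphosphate receptor in Purkinje cells, was at 41.3 to 201 FPKM (median 72.0) against 0.665 to 10.6 FPKM (median 2.70). Rgs8, a regulator of G protein signaling, was at 34.4 to 207 FPKM (median 65.4) against 0.181 to 11.6 FPKM (median 3.56), a log2 difference of 3.58 ± 0.31. Pcp2, a Purkinje cell protein that binds Gi and Go, was at 159 to 535 FPKM (median 303) against 0 to 60.6 FPKM (median 34.7), with a difference of 3.60 ± 0.92. Pcp2 was called in 23 of 30 settings, and not without Olig1-Gnas 7 or 8. Its 2 listed zeros, in Olig1-Gnas 2 and 4, stand beside values of 20.2 to 60.6 FPKM in the other Olig1-Gnas low residual libraries and can be failed estimates.

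The Purkinje list retained 15.8 and 20.8% of the Ctrl mean in Olig1-Gnas 7 and 8, and 62.3, 32.2, 49.3 and 22.3% in hGFAP-Gnas 1, 2, 7 and 8. Low residual Olig1-Gnas libraries held 0.7 to 3.7% and low residual hGFAP-Gnas libraries 3.5 to 7.6%. In all 16 knockout libraries but Olig1-Gnas 3 the Purkinje share was below the granule neuron share of the same library. These lists were measured in the same RNA as Gabra6, so their moving together describes these libraries and is no independent test.

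Inhibitory interneuron genes gave 9 higher of 10 compared, beside 9.59% of all genes, with a median of 1.36. Of the 9, Pax2, an interneuron precursor factor, passed the filter on low values only through high residual libraries. Gad1, which makes GABA, was at 33.3 to 167 FPKM (median 59.9) in high residual and 0.503 to 18.4 FPKM (median 4.66) in low residual libraries, a difference of 3.32 ± 0.47. Slc32a1, the vesicular GABA transporter, differed by 2.93 ± 0.43, Pvalb (parvalbumin, also made by Purkinje cells) by 2.72 ± 0.68 and Gad2 by 2.34 ± 0.46. The classes overlapped for Pvalb and Gad2. For Pvalb the overlap came from Olig1-Gnas 1 and 2 at 358 and 249.8 FPKM, where the other 8 low residual libraries had 12 to 41.9 FPKM. For Gad2 it came from Olig1-Gnas 6 at 7.89 FPKM, above the 6.16 and 6.21 FPKM of the high residual libraries of its own model. The list retained 16.8 to 63.7% of the Ctrl mean in high residual libraries and 0.8 to 10.9% in low residual ones.

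Genes of synaptic vesicle release, which neurons of all kinds share, gave 9 higher of 13, beside 9.59% of all genes, with a median of 1.11. The 9 became 6 without hGFAP-Gnas 1 and 0 in Olig1-Gnas libraries alone. Snap25, a core fusion protein, was at 439 and 464 FPKM in Olig1-Gnas 7 and 8, compared with 1507, 864, 677 and 263 FPKM in hGFAP-Gnas 1, 2, 7 and 8. Its low residual range was 57.4 to 252 FPKM, which ended just under the lowest high residual value. Unc13c, a priming factor prominent in cerebellum, differed by 2.16 ± 0.32, the calcium sensor Syt1 by 2.01 ± 0.51 and Vamp1 by 1.92 ± 0.55. Of 30 settings, Syt1 was called in 23 and Vamp1 in 15. The low residual tissue retained 7.2 to 33.8% of the Ctrl mean for this list, a higher share than for granule or Purkinje genes in every low residual library.

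Of the markers of unipolar brush cells and of the cerebellar nuclei, 0 of 4 compared were called in either direction, beside 10.8% of all genes. Eomes, a transcription factor of unipolar brush cells, was at 0.322 to 2.31 FPKM (median 0.791) in high residual and 0.0340 to 3.23 FPKM (median 0.496) in low residual libraries, and at 4.95 to 12.8 FPKM in Ctrl. Irx3, which was called in 6 of 29 settings, had medians of 3.04 and 0.827 FPKM, Lhx2 of 8.50 and 13.6, and Slc17a6, the vesicular glutamate transporter of deep nuclear neurons, of 16.3 and 13.9. Lmx1a, Tbr1 and Lhx9 did not pass the filter on low values.

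Mature oligodendrocyte genes were also higher in high residual tissue, 9 of 13 compared beside 9.59% of all genes. None was lower, and the median was 1.79. Mobp, a structural protein of myelin, was at 45.6 and 18.3 FPKM in Olig1-Gnas 7 and 8, compared with 151, 116, 89.8 and 32.1 FPKM in hGFAP-Gnas 1, 2, 7 and 8. Low residual libraries had 0.0417 to 52.0 FPKM (median 2.28) and Ctrl 74.5 to 93.8 FPKM. hGFAP-Gnas 4 at 52.0 FPKM and Olig1-Gnas 6 at 26.0 FPKM were the low residual libraries that overlapped the high residual range. Hapln2, of the matrix at nodes of Ranvier, differed by 2.28 ± 0.49, the myelin-associated glycoprotein Mag by 2.20 ± 0.42 and Mal, a myelin proteolipid, by 1.95 ± 0.43. Mbp, the myelin basic protein gene, was listed at 0 in every library, Ctrl included, and was not compared.

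Oligodendrocyte genes did not keep step with granule neuron genes from library to library. In hGFAP-Gnas 2 the oligodendrocyte list stood at 117.5% of the Ctrl mean while granule genes stood at 40.1%. In hGFAP-Gnas 7 the shares were 80.0 and 55.2%, and in low residual hGFAP-Gnas 4 they were 47.4 and 10.9%. hGFAP-Gnas 1 had the opposite order, 77.9% against 87.5%. In Olig1-Gnas 7 and 8 the oligodendrocyte shares were 30.1 and 20.4%, near their granule neuron shares of 26.6 and 27.4%.

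**Figure D2:**
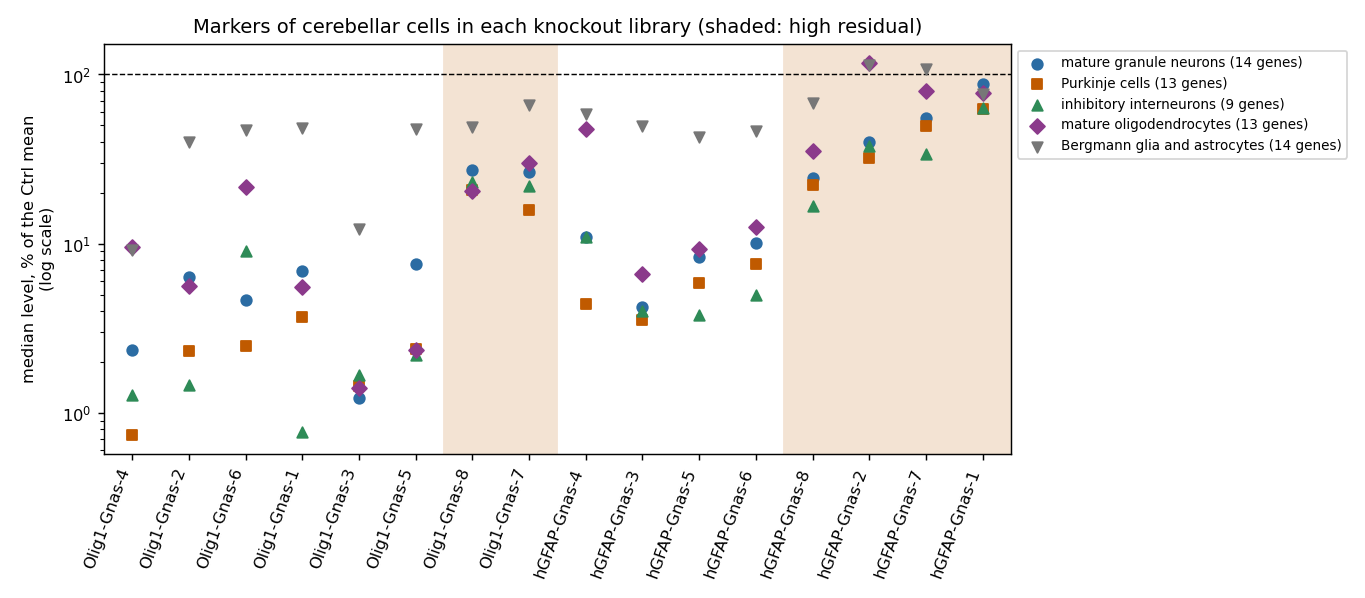
Median level of 5 marker lists as a percent of the Ctrl mean (vertical axis, logarithmic; dashed line at 100%) in each of the 16 knockout libraries, ordered by Gabra6 within each Cre model, with high residual libraries shaded. Purkinje genes lay at 15.8 to 62.3% in the shaded libraries and at 0.7 to 7.6% elsewhere, while Bergmann glia and astrocyte genes spanned 49.0 to 113.3% and 9.2 to 58.4%.

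Bergmann glia and astrocyte genes were less depleted. Of 14 compared, 4 were higher in high residual tissue (Aldoc, A2m, Gja1 and S100b), beside 9.59% of all genes. None was lower, and the median was 0.71. Aldoc, the glycolytic enzyme zebrin II that Purkinje cells also make, was at 358 to 1102 FPKM (median 612) against 11.5 to 276 FPKM (median 127), a difference of 2.61 ± 0.57. Gja1, the astrocyte gap junction protein connexin 43, was at 26.1 to 104 FPKM (median 66.9) against 3.19 to 54.1 FPKM (median 16.2), a difference of 1.79 ± 0.40. A2m differed by 1.89 ± 0.44 and S100b, a calcium-binding protein, by 0.97 ± 0.23. Hepacam, an astrocyte adhesion molecule, had medians of 38.6 and 15.0 FPKM and was not called. This list retained 9.2 to 58.4% of the Ctrl mean in low residual tissue, and the lowest shares, 12.2 and 9.2%, belonged to Olig1-Gnas 3 and 4.

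Vascular, choroid plexus, meningeal and blood genes show which other tissue the pieces held. Of 13 vascular genes, 3 were higher (Vtn by 1.06 ± 0.23, Flt1 by 0.81 ± 0.19 and Pdgfrb by 0.66 ± 0.19), with a list median of 0.39 and summed levels of 153 to 252 FPKM in high and 93.9 to 182 FPKM in low residual libraries. Of all genes, 9.59% were higher. After quantile normalization 1 vascular gene was called, and Pdgfrb was called in 16 of 30 settings and not without hGFAP-Gnas 1, 5, 6 or 7 or Olig1-Gnas 5 or 7. Vtn and Pdgfrb mark pericytes and Flt1 is a VEGF receptor of endothelium. Of 8 choroid plexus genes only Clic6, a chloride channel protein, was called (1.48 ± 0.30). Of the 8, 7 had differences above 0 and 1 below, Otx2 at -1.36, which was called in 6 of 30 settings. The list median of 0.89 became -0.19 with high residual at 100 FPKM or more. Ttr, the transthyretin of choroid plexus, was at 2317 FPKM in Olig1-Gnas 8, 863 FPKM in hGFAP-Gnas 8 and 1195 FPKM in Ctrl 3, and at 0.123 to 285 FPKM in the other libraries. High Ttr was thus found in 1 library of Ctrl and in 1 high residual library of each model. None of 7 meningeal and 4 blood genes was called, with medians of 0.25 (0.43 without hGFAP-Gnas 1) and 0.88. Hox genes of the hindbrain behind the cerebellum reached at most 4.95 FPKM in any library and none of 11 passed the filter. The part of these tissues in the differences was not tested.

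Genes of the mitosis and DNA replication lists had the opposite sign, and none of them passed the threshold. All 19 mitosis genes had lower fitted levels in high residual tissue, with a median of -1.02, and 0 of 19 were called, beside 10.8% of all genes. Mki67 was at 104 and 78.7 FPKM in Olig1-Gnas 7 and 8, compared with 2.70, 43.0, 56.6 and 122 FPKM in hGFAP-Gnas 1, 2, 7 and 8. In low residual libraries it was at 128 to 264 FPKM (median 158) in Olig1-Gnas and at 105, 85.1, 164 and 165 FPKM in hGFAP-Gnas 3 to 6. Within Olig1-Gnas both high residual libraries lay under the low residual range, while in hGFAP-Gnas the classes overlapped. The log2 differences were -1.50 ± 0.56 for Mki67, -1.25 ± 0.48 for the spindle motor Kif11, -1.23 ± 0.59 for topoisomerase Top2a and -1.23 ± 0.49 for the kinetochore protein Cenpf.

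hGFAP-Gnas 1 accounted for much of the size of these differences. Without it the mitosis median was -0.51, closer to 0, and 4 of 19 genes were called lower. As a share of the low residual mean of the same model, the mitosis list stood at 79.5 and 69.9% in Olig1-Gnas 7 and 8, and at 2.9, 60.2, 46.7 and 88.7% in hGFAP-Gnas 1, 2, 7 and 8. The low residual libraries themselves ran from 82.8 to 125.4% in Olig1-Gnas and from 74.5 to 121.1% in hGFAP-Gnas. All 6 high residual libraries were under the low residual mean of their model, and 5 of them, all but hGFAP-Gnas 8, were also under its range.

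DNA replication genes behaved in the same way. All 17 had lower fitted levels, with a median of -0.90 (-0.49 without hGFAP-Gnas 1). Of the 17, 0 were called (5 without hGFAP-Gnas 1), beside 10.8% of all genes. Uhrf1, which recruits DNA methylation to new strands, differed by -1.14 ± 0.53. The helicase subunits Mcm6 and Mcm3 both differed by -1.07, with SE of 0.50 and 0.48, and Chaf1b, a chromatin assembly factor, by -1.05 ± 0.44. The list stood at 82.7 and 70.6% of the low residual mean in Olig1-Gnas 7 and 8, and at 5.4, 66.8, 45.2 and 83.4% in hGFAP-Gnas 1, 2, 7 and 8.

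Hedgehog targets had a median of -0.72, with 10 of 11 below 0, and 0 of 11 were called, beside 10.8% of all genes. Gli1, a transcription factor whose level reports pathway output, was named here after its values were seen. It was at 98.7 and 60.6 FPKM in Olig1-Gnas 7 and 8, compared with 20.1, 42.8, 33.1 and 56.3 FPKM in hGFAP-Gnas 1, 2, 7 and 8, at 67.8 to 122 FPKM in low residual Olig1-Gnas and at 57.6 to 83.0 FPKM in low residual hGFAP-Gnas libraries. In hGFAP-Gnas all 4 high residual libraries were below all 4 low residual ones, whereas Olig1-Gnas 7 lay inside the low residual range of its model. Sfrp1, a secreted Wnt antagonist, differed by -1.31 ± 0.57, cyclin Ccnd2 by -1.16 ± 0.51 and the oncogene Mycn by -1.01 ± 0.56. Ptch1, the hedgehog receptor and also named outside the rule, differed by -0.63 ± 0.28, with 36.3 to 142 FPKM in high and 74.2 to 343 FPKM in low residual libraries. Without hGFAP-Gnas 1 the list median was -0.46. The targets stood at 90.0 and 67.4% of the low residual mean in Olig1-Gnas 7 and 8, and at 5.7, 46.7, 46.7 and 81.0% in hGFAP-Gnas 1, 2, 7 and 8.

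Among the other members of the pathway, taken from ligand to effector, 13 were compared. Shh, the ligand itself, was at 0.556 and 0.477 FPKM in Olig1-Gnas 7 and 8, compared with 1.45, 1.19, 1.05 and 0.318 FPKM in hGFAP-Gnas 1, 2, 7 and 8. Low residual libraries held 0 to 0.269 FPKM (median 0.0602), and Ctrl 1.17 to 2.79 FPKM. The difference was 0.68 ± 0.13. Cdon, a ligand-binding coreceptor, was at 1.76 to 12.8 FPKM (median 2.78) against 0.286 to 0.662 FPKM (median 0.417), a difference of 1.56 ± 0.26. Neither gene reached 1 FPKM in any low residual library, so both passed the filter on low values only through high residual libraries, and their differences support nothing. Sufu, the inhibitor that binds GLI proteins, was at 10.8 to 35.4 FPKM (median 21.8) against 23.1 to 48.0 FPKM (median 34.1). Its difference of -0.73 ± 0.22 was called in 13 of 30 settings. It was not called on leaving out any 1 of Olig1-Gnas 1, 2, 4, 5, 7 and 8 and hGFAP-Gnas 1 to 7. Smo, the signal transducer that Ptch1 holds inactive, was at 8.71 to 48.4 FPKM (median 31.2) against 35.8 to 76.2 FPKM (median 50.9) and was not called.

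Granule progenitor genes gave a median of -0.52 over 11 genes, with 8 below 0, and a median of -0.22 without hGFAP-Gnas 1. Of the 11, 1 was called, a member not named here, and it was higher in high residual tissue, beside 9.59% of all genes. Without hGFAP-Gnas 1 none was called. Atoh1, the master factor of the granule lineage, was at 145 and 81.6 FPKM in Olig1-Gnas 7 and 8, compared with 0.937, 43.3, 25.8 and 56.3 FPKM in hGFAP-Gnas 1, 2, 7 and 8. Low residual libraries spanned 23.8 to 201 FPKM, so Olig1-Gnas 7 had more Atoh1 than 8 of the 10 low residual libraries, while hGFAP-Gnas 1 was near the Ctrl range of 0.0536 to 0.198 FPKM. Barhl1, a homeobox gene downstream of Atoh1, differed by -0.76 ± 0.38 and Mfap4 by -0.69 ± 0.63.

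Genes of differentiating granule neurons had a median of -0.86 (-0.29 without hGFAP-Gnas 1), and 0 of 12 were called, beside 10.8% of all genes. Dcx, the microtubule protein of migrating neurons, differed by -1.18 ± 0.48, the transcription factors Insm1 by -1.04 ± 0.49, Sox4 by -0.99 ± 0.36 and Nhlh1 by -0.98 ± 0.59. Dcx was at 28.9 and 48.6 FPKM in Olig1-Gnas 7 and 8, compared with 3.96, 21.5, 55.2 and 79.7 FPKM in hGFAP-Gnas 1, 2, 7 and 8. Low residual libraries had 37.4 to 104 FPKM (median 68.1).

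**Figure D3:**
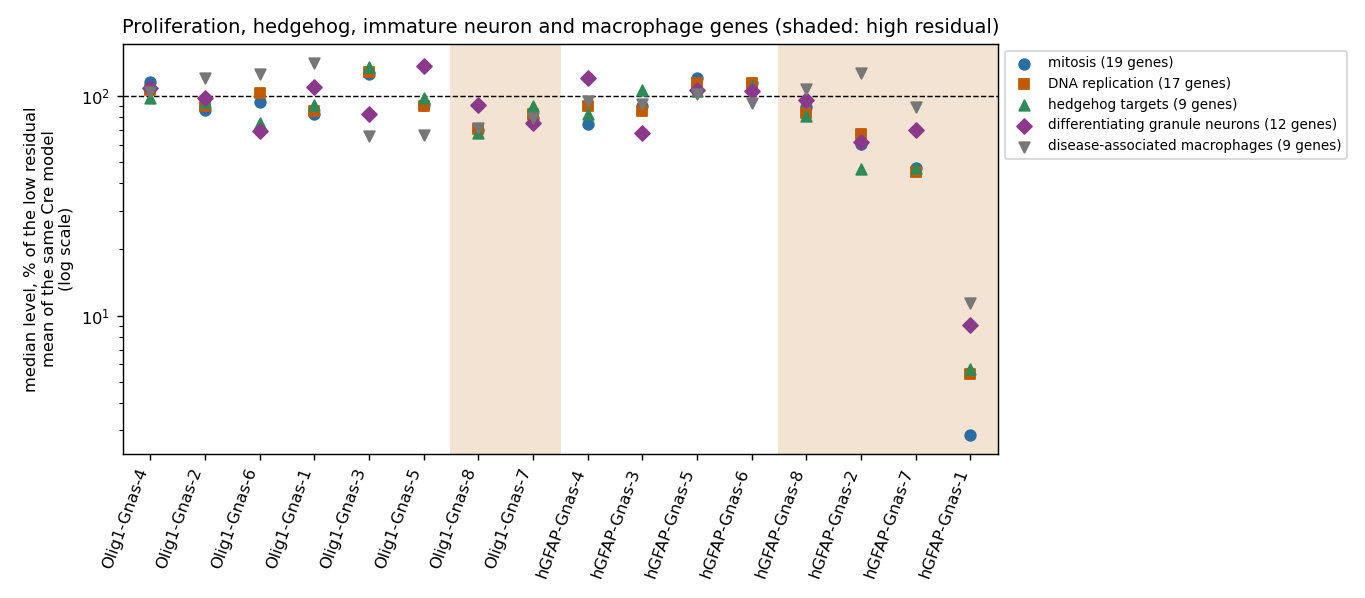
Median level of 5 gene lists as a percent of the low residual mean of the same Cre model (vertical axis, logarithmic; dashed line at 100%) in each knockout library, ordered by Gabra6 within each model, with high residual libraries shaded. hGFAP-Gnas 1 stood at 2.9% for mitosis and 11.4% for macrophage genes, whereas the other 5 high residual libraries stood at 46.7 to 88.7% for mitosis and 71.5 to 127.2% for macrophage genes.

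The 171 genes lower in high residual tissue had small differences, and their number rested on single libraries. It was 28 without hGFAP-Gnas 5, 34 without hGFAP-Gnas 6, 54 without hGFAP-Gnas 7 and 57 without hGFAP-Gnas 3. It was 70, 83 and 91 without Olig1-Gnas 8, hGFAP-Gnas 4 and Olig1-Gnas 7, and 286 without Olig1-Gnas 6. With Y-linked signal as a term it was 39. The largest by value, Madd at -3.50 ± 0.58, rests on listed zeros: it was at 0 in 5 high residual libraries and at 25.7 FPKM in hGFAP-Gnas 8, against 11.4 to 20.6 FPKM in low residual libraries and 59.5 to 66.4 FPKM in Ctrl. With exact zeros taken as missing, its difference was 0.47. After it came Lrig3 (-1.13 ± 0.34), Ngfr (-1.11 ± 0.34), Pole (-1.08 ± 0.32), Ncapg2 (-1.05 ± 0.29), A730008H23Rik (-1.04 ± 0.29), Xkr7 (-1.02 ± 0.32), Myb (-0.98 ± 0.29), Hrk (-0.97 ± 0.30) and Prkd3 (-0.94 ± 0.25). Of 30 settings, Lrig3 and Pole were called in 13, Ngfr in 11, Ncapg2 in 20, A730008H23Rik in 22, Xkr7 in 7, Myb in 17, Hrk in 10 and Prkd3 in 25. Pole is the catalytic subunit of DNA polymerase epsilon, Ncapg2 a condensin II subunit, and A730008H23Rik is named Hjurp by RefSeq, the chaperone of centromeric histone. Ngfr is the low affinity neurotrophin receptor, Myb a proto-oncogene transcription factor, and Hrk a pro-apoptotic member of the BCL2 family.

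Lrig3, Pole, Ncapg2 and Myb separated the classes completely. Lrig3, a transmembrane protein with leucine-rich repeats, was at 33.2 and 32.3 FPKM in Olig1-Gnas 7 and 8, compared with 3.23, 21.3, 13.6 and 28.8 FPKM in hGFAP-Gnas 1, 2, 7 and 8. Low residual libraries had 36.2 to 70.9 FPKM (median 43.0). Pole was at 1.33 to 16.5 FPKM (median 10.5) against 16.9 to 29.6 FPKM (median 20.4). Ncapg2 was at 1.50 to 14.7 FPKM (median 10.4) against 15.1 to 30.2 FPKM (median 18.5). Myb was at 0.521 to 6.20 FPKM (median 4.23) against 6.55 to 18.8 FPKM (median 8.03). The gaps between the classes were small: Pole was at 16.5 FPKM in hGFAP-Gnas 8 and 16.9 FPKM in hGFAP-Gnas 4.

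Genes of immune cells and reactive glia were seldom called, beside 10.8% of all genes, and nothing is read from counts this small. None of 13 genes of disease-associated macrophages and none of 12 of reactive astrocytes was called, with medians of -0.45 and -0.15 that became -0.03 and 0.05 without hGFAP-Gnas 1. Of 14 microglia genes, 1 was called, Siglech, a lectin of homeostatic microglia, which was higher (0.78 ± 0.22). It was called in 16 of 28 settings, and not after quantile normalization or without Olig1-Gnas 7 or hGFAP-Gnas 2, 3, 5, 6 or 7. Lyz2, the lysozyme of macrophages, was at 364 and 564 FPKM in Olig1-Gnas 7 and 8, compared with 18.0, 569, 453 and 652 FPKM in hGFAP-Gnas 1, 2, 7 and 8. Low residual libraries had 291 to 883 FPKM (median 606). hGFAP-Gnas 1 was thus the 1 knockout library near the Ctrl range of 9.0 to 17.5 FPKM. C1qb, a complement subunit, gave 38.9 FPKM in hGFAP-Gnas 1 and 160 to 326 FPKM in the other high residual libraries, against 156 to 595 FPKM in low residual ones. Lcn2, a secreted protein of reactive astrocytes, spanned 27.2 to 284 FPKM and 12.5 to 367 FPKM in the 2 classes. Serpina3n, a protease inhibitor induced in the same cells, spanned 12.1 to 125 and 30.8 to 430 FPKM.

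Oligodendrocyte precursor genes gave 0 of 11 called, beside 10.8% of all genes, and a median of -0.37, or -0.09 without hGFAP-Gnas 1. Pdgfra, their growth factor receptor, was at 47.2 and 74.8 FPKM in Olig1-Gnas 7 and 8, compared with 11.1, 55.0, 39.8 and 89.8 FPKM in hGFAP-Gnas 1, 2, 7 and 8. It was at 43.1 to 95.4 FPKM in low residual Olig1-Gnas libraries and at 143, 92.8, 139 and 124 FPKM in hGFAP-Gnas 3 to 6. In hGFAP-Gnas the 2 classes did not overlap for Pdgfra, and in Olig1-Gnas they did. Over both models the difference was -1.03 ± 0.37 and was not called. The list median was 0.22 in Olig1-Gnas alone and -0.76 in hGFAP-Gnas alone.

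Genes around Gsα signaling were mixed. Of 21 cAMP signaling genes, 6 were higher and none lower, beside 9.59 and 1.19% of all genes, with a median of 0.20. Ppp1r1b, the protein kinase A target DARPP-32, was at 28.1 to 97.7 FPKM (median 62.7) against 0.0868 to 16.5 FPKM (median 6.17), a difference of 3.30 ± 0.59. The calmodulin-activated adenylyl cyclase Adcy1 was at 39.7 to 261 FPKM (median 61.0) against 2.92 to 20.9 FPKM (median 9.81), a difference of 2.62 ± 0.33. Gnal, the Gsα relative of olfactory and striatal neurons, differed by 1.62 ± 0.42 and Prkar1b, a neuronal regulatory subunit of protein kinase A, by 1.36 ± 0.33. The other called members were Adcy9 and Pde4a. Adult cerebellar neurons are a known site of Adcy1 and Prkar1b.

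Counts in the remaining lists stand beside 10.8% of all genes called, and nothing is read from them. Among cell cycle inhibitors and p53 targets 0 of 16 were called (median -0.18). Of 9 neural stem cell genes 1 was called, Id4, an inhibitor of basic helix-loop-helix factors, which was higher by 1.54 ± 0.30. Of 10 immediate early genes Arc, a synaptic activity gene, was higher (1.16 ± 0.18, with no overlap) and Egr2 lower (-0.73 ± 0.22). Egr2 was called in 10 of 29 settings. It was not called on leaving out any 1 of Olig1-Gnas 1, 2, 5, 7 and 8 and hGFAP-Gnas 1, 3, 4, 5, 6 and 7. None of 12 interferon response genes was called (median 0.10, 0.32 without hGFAP-Gnas 1 and -0.02 after quantile normalization). Cd4, the 1 T lymphocyte gene that passed the filter, was at 0.187 to 4.91 FPKM against 2.42 to 6.77 FPKM and was not called.

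Whether the high to low difference itself varied with the Cre driver was tested with an interaction term. The rule did not use the model labels, but it cut the classes on Gabra6 in these same libraries. In Olig1-Gnas the classes held 59.8 to 75.7 and 0 to 3.27 FPKM of Gabra6, and in hGFAP-Gnas 59.9 to 261 and 4.48 to 12.4 FPKM. The test cannot separate the driver from this unequal gap. At an adjusted p under 0.05 no gene passed (0 of 14386, 0%), the smallest adjusted p was 0.930, and 445 genes had an unadjusted p under 0.05 (limma). Without Olig1-Gnas 7, 1 gene passed. With 2 high residual Olig1-Gnas libraries this does not show that the models act alike. Medians in Olig1-Gnas and hGFAP-Gnas were 2.14 and 2.31 for granule neurons, 2.78 and 2.56 for Purkinje cells, 0.77 and 1.33 for synaptic vesicle release, and 1.23 and 1.86 for oligodendrocytes. They were 1.38 and 1.40 for interneurons, where a fit of the Olig1-Gnas libraries alone gave 1.97. Tumor lists had medians closer to 0 in Olig1-Gnas, at -0.34 and -1.52 for mitosis, -0.19 and -1.17 for hedgehog targets and -0.04 and -1.26 for differentiating granule neurons. These hGFAP-Gnas medians include hGFAP-Gnas 1. The median over all genes was 0.07 in Olig1-Gnas and -0.13 in hGFAP-Gnas. For Atoh1 the values were 0.68 ± 1.04 in Olig1-Gnas and -2.10 ± 0.90 in hGFAP-Gnas, where hGFAP-Gnas 1 has under 1 FPKM.

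**Figure D4:**
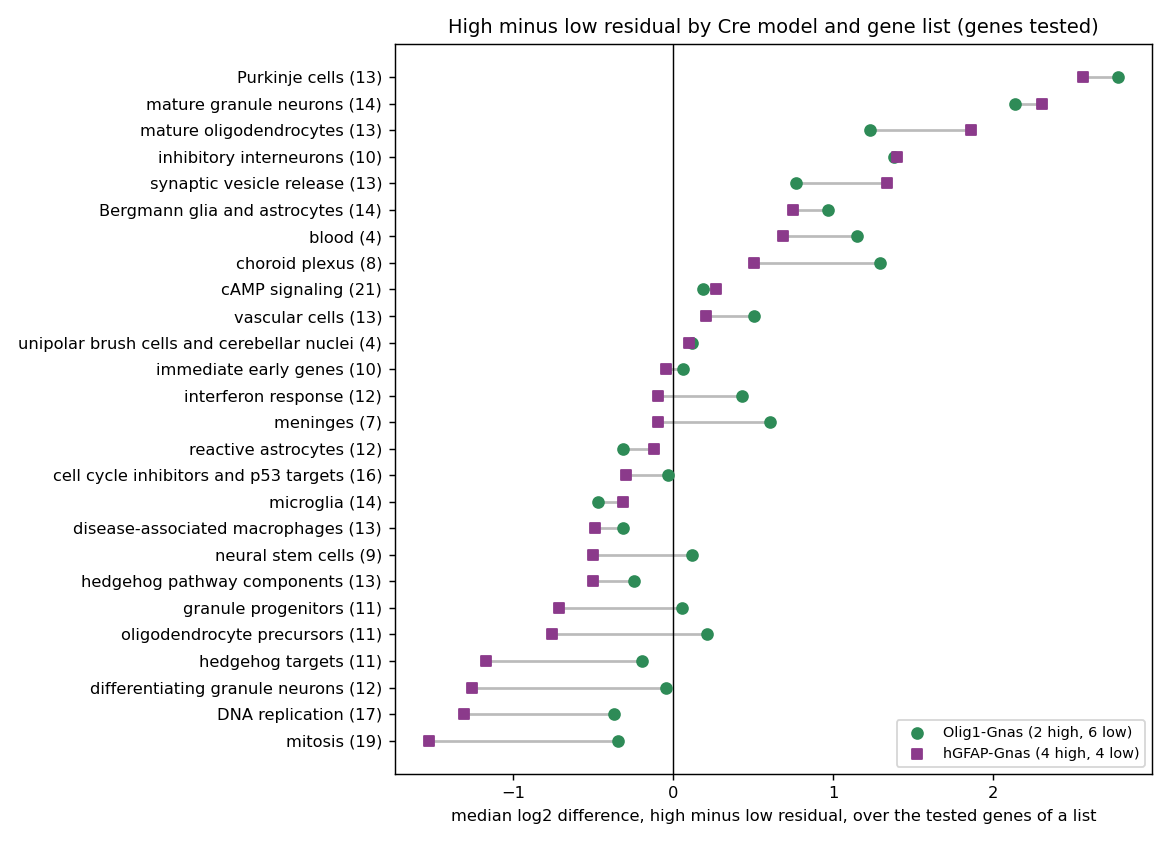
Median log2 difference of high minus low residual libraries (horizontal axis, on log2(FPKM + 1)) for each gene list with at least 4 genes tested, separately in Olig1-Gnas (circles) and hGFAP-Gnas (squares). Purkinje genes lay at 2.78 and 2.56, and mitosis genes at -0.34 and -1.52; no gene passed the test of the difference between the models.

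Against wild type, high residual tissue was still far from normal. Of 14591 genes compared, 5219 passed the same threshold (35.8%). Of these, 3519 lay above Ctrl (24.1%) and 1700 below it (11.7%). For low residual tissue against the same 3 Ctrl libraries the count was 8902 (61%), with 5424 higher (37.2%) and 3478 lower (23.8%). The medians over all genes were 0.20 and 0.23. The share of higher calls depended on scaling: quantile normalization gave 2531 higher of 5441 and upper quartile scaling 3013 of 5120 for high residual tissue, and 4652 of 8859 and 4526 of 8711 for low residual tissue. The median over all genes then moved to -0.03 and 0.09 in high residual tissue and to 0.07 and 0.06 in low residual tissue. The 2 comparisons share their Ctrl libraries and were not tested against each other. Since the classes were formed on Gabra6, tests against Ctrl describe these libraries, and no p-value is given for markers of normal cerebellum.

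Cell cycle and hedgehog genes rose in both classes, where 24.1% (high) and 37.2% (low) of all genes rose. All 19 mitosis genes were higher than Ctrl in high residual tissue, with a median of 4.09 (4.55 without hGFAP-Gnas 1), and all 19 in low residual tissue, with a median of 5.26. Mki67 was at 0.188 to 0.325 FPKM in Ctrl. Its difference from Ctrl was 5.46 ± 0.72 in high residual tissue and 6.89 ± 0.66 in low residual tissue. It lay above every Ctrl library in 6 of 6 and 10 of 10 libraries. With no Ctrl library at 1 FPKM, it passed the filter only through knockout libraries, so these values are a description. The same holds for any other gene under 1 FPKM in every Ctrl library. All 17 DNA replication genes rose in both classes, with medians of 3.17 and 3.87. Of 11 hedgehog targets, 8 rose in high and 10 in low residual tissue, with medians of 2.63 and 3.20. Gli1, at 7.20 to 8.51 FPKM in Ctrl, was higher by 2.63 ± 0.25 (6 of 6 libraries) and by 3.20 ± 0.23 (10 of 10). It was named after its values were seen, so no p-value is given. Even hGFAP-Gnas 1, with Gli1 at 20.1 FPKM and Mki67 at 2.70 FPKM, was above the Ctrl range for both genes.

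Ptch1, also named after its values were seen, was higher by 1.54 ± 0.33 in low residual tissue (10 of 10 libraries above Ctrl). In high residual tissue it did not pass (0.86 ± 0.36, 5 of 6), and hGFAP-Gnas 2 had 36.3 FPKM against 46.9 to 51.7 FPKM in Ctrl. Atoh1, at no more than 0.198 FPKM in Ctrl, was higher by 5.38 ± 0.86 and 6.09 ± 0.79. It lay above Ctrl in 6 of 6 and 10 of 10 libraries. It too passed the filter only through knockout libraries, so these values are a description. Of 12 differentiating granule neuron genes 9 rose in both classes, with medians of 3.08 and 4.01, and Insm1 rose by 5.89 ± 0.61 and 6.82 ± 0.56. Stmn2, a microtubule regulator of mature axons, was the 1 member that fell in low residual tissue. Of 13 other pathway members, 5 rose and 2 fell in high residual tissue, and 7 rose and 2 fell in low residual tissue. Of all genes, 24.1% rose and 11.7% fell in high residual tissue, and 37.2 and 23.8% in low residual tissue. Those that fell in both were Cdon (-1.19 ± 0.33 and -2.71 ± 0.30), which did not pass in high residual tissue without Ctrl 1, and Shh (-0.85 ± 0.20 and -1.52 ± 0.18). With no low residual library at 1 FPKM, both passed the filter through the other groups, so their values in low residual tissue are a description. Smo rose by 1.83 ± 0.30 and 2.42 ± 0.28 and Sufu by 1.36 ± 0.28 and 2.07 ± 0.26, with adjusted p of 0.000358 and 0.00163 in high residual tissue (limma), where 5 and 6 of 6 libraries lay above every Ctrl library.

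Macrophage and reactive astrocyte genes rose in both classes, and the difference between the classes was not tested against Ctrl. Of 13 macrophage genes, 11 rose in high and 12 in low residual tissue, with medians of 2.74 and 3.11. Lyz2 rose by 4.57 ± 0.80 (adjusted p = 0.000621, limma, 6 of 6 libraries above Ctrl) and 5.39 ± 0.74 (adjusted p = 1.19e-05, 10 of 10), and by 5.17 ± 0.29 in high residual tissue without hGFAP-Gnas 1. Of 14 microglia genes, 9 rose in high residual tissue, and in low residual tissue 10 rose and Siglech fell. Tmem119 and P2ry12, markers of resting microglia, did not pass in either class. Of 12 reactive astrocyte genes, 9 rose in high and 10 in low residual tissue, with medians of 2.41 and 2.50. Lcn2 was higher by 5.77 ± 0.91 (6 of 6 libraries) and 6.31 ± 0.83 (10 of 10), given as a description without a p-value. Pdgfra rose by 2.90 ± 0.43 and 3.83 ± 0.39, while of 11 precursor genes 3 and 5 rose, beside 24.1 and 37.2% of all genes. The 5 became 3 without any 1 Ctrl library, and 1 precursor gene fell in low residual tissue.

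Cell cycle inhibitors and p53 targets rose together with the proliferation genes, 10 of 16 in high and 14 of 16 in low residual tissue, with medians of 0.98 and 1.21. Of all genes, 24.1 and 37.2% rose in these classes. Eda2r, a p53-induced death receptor, was higher by 3.43 ± 0.46 (6 of 6 libraries) and 4.32 ± 0.42 (10 of 10). Cdkn2c, the p18 inhibitor of CDK4 and CDK6, was higher by 3.22 ± 0.43 and 4.04 ± 0.39. Of 9 stem cell genes 5 rose in both classes, among them Nes by 2.79 ± 0.40 and 3.37 ± 0.37. In low residual tissue 2 of the 9 fell, Id4 (-2.28 ± 0.33) and Prom1 (-0.71 ± 0.18), beside 23.8% of all genes. Of 12 interferon genes Bst2 alone rose in high residual tissue, beside 24.1% of all genes, while 7 did without hGFAP-Gnas 1.

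Most lists of normal cerebellar genes had medians below Ctrl in both classes. Markers of unipolar brush cells and the cerebellar nuclei did not, with medians of 0.42 in high and 0.17 in low residual tissue. Of these 4 genes, 2 rose and 1 fell in high residual tissue, and 2 rose and 2 fell in low residual tissue. Without Ctrl 1 the median in high residual tissue was -0.01. Purkinje genes had medians of -1.86 from Ctrl in high and -4.85 in low residual tissue, granule neuron genes -1.46 and -3.63, interneuron genes -1.67 and -3.19, and oligodendrocyte genes -1.11 and -2.76. Lower calls numbered 12 and 13 of 13 for Purkinje, 10 and 14 of 14 for granule neuron, 8 and 10 of 10 for interneuron, and 6 and 12 of 13 for oligodendrocyte genes. Of all genes, 11.7 and 23.8% were called lower. The 6 oligodendrocyte calls in high residual tissue became 1 without Ctrl 1, 3 without Ctrl 2, 1 without Ctrl 3 and 9 after quantile normalization, and the 8 interneuron calls became 5 without Ctrl 2. Bergmann glia and astrocyte genes had medians of -0.38 and -1.50, with 1 and 9 of 14 called lower. In low residual tissue 2 of the 14 were called higher. The 1 lower gene in high residual tissue was Hopx, and without any 1 Ctrl library none was called there. Of 21 cAMP genes, 9 fell and 2 rose in high residual tissue, and 12 fell and 4 rose in low residual tissue. Of all genes, 11.7% fell and 24.1% rose in high residual tissue, and 23.8 and 37.2% in low residual tissue. The 9 became 5 without Ctrl 1 or without Ctrl 2. Adcy6, an adenylyl cyclase of many tissues, and Prkar2b rose in both. The medians from Ctrl of vascular genes (0.09) and granule progenitor genes (0.07) in high residual tissue turned to -0.14 and -0.16 after quantile normalization and to -0.04 and -0.06 after upper quartile scaling, so no direction is given for them.

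**Figure D5:**
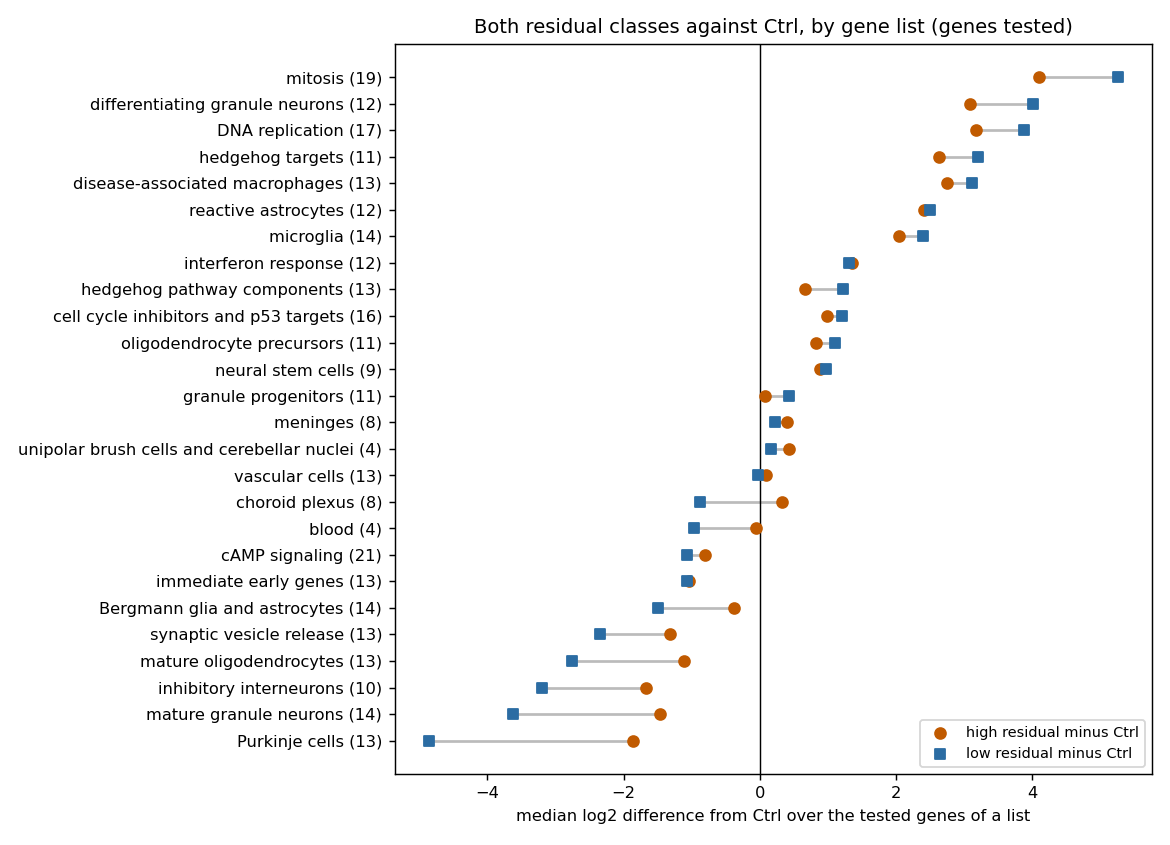
Median log2 difference from the 3 Ctrl libraries (horizontal axis, on log2(FPKM + 1)) for each gene list with at least 4 genes tested between the classes. Circles are the 6 high residual libraries and squares the 10 low residual libraries, each as the mean of the 2 Cre models. Mitosis genes lay at 4.09 and 5.26 and Purkinje genes at -1.86 and -4.85, while reactive astrocyte genes lay at 2.41 and 2.50.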

How the data were processed

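RNA from the cerebella of 19 mice was sequenced (TruSeq libraries). The authors deposited 2 tables of FPKM values, 1 for each Cre model with the same Ctrl libraries. Per the submitters' processing notes TopHat, Cufflinks and the mm9 build were used, and their versions are not given in the sources used here. That the unit is FPKM is not in the headers, and read counts were not used here, so sequencing depth was only inferred from steps among low values. The tables were joined by their gene identifier (22193 genes). Ctrl values came from the Olig1-Gnas table, and Ctrl 1 differed in 5106 genes from the other table. A gene entered the fit when 3 or more libraries had 1 FPKM or more, and differences were tested with limma 3.58.1 in R 4.3.3 on log2(FPKM + 1), with trended and robust moderation and Benjamini-Hochberg adjustment over all genes tested. The difference on this scale understates the change of low genes. High against low residual was fitted with the Cre model as a term. The comparisons with Ctrl used the mean of the 2 models' groups. Shares of Ctrl used genes with a Ctrl mean of at least 5 FPKM. The fits were run on simulated data with planted differences and independent noise for each gene. That setting holds no classes formed on Gabra6 and no genes that move together.

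The residual classes, members and 28 gene lists (345 genes) were chosen with earlier results of these data known. Named genes were Gabra6 and Gnas, up to 4 members of each list with the largest absolute difference, and the 10 largest differences in each direction. Gli1, Ptch1 and S100b, and members named only as exceptions to a count, were named after their values were seen. Some genes that the rule selects are not reported here. Replicate numbers did not pair the animals: the correlations of same-numbered libraries of the 2 models ran from -0.171 to 0.0333 over 8 numbers. Alternatives were other offsets, filters, scalings, moderation, classes, added terms and leaving out each library.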

Additional observations from a re-analysis of the deposited data

Results flagged for a closer look

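Within each class of a Cre model, single libraries that lay far from the others were sought for the named genes. Of 362 gene-by-group checks, 34 found such a library. For independent, normally distributed values the rate would be about 1 in 20. Many genes share the same few libraries, so the checks are not independent, and that rate does not show whether 34 is an excess. The libraries were 9 in all.

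Olig1-Gnas 6 stood apart most often among low residual libraries. Its inhibitory neuron genes were high, with Gad1 at 18.4 FPKM (0.503 to 2.65 in the other 5), Slc32a1 at 6.75 (0.0976 to 0.509) and Gad2 at 7.89 (0.0234 to 0.352). Unc13c was at 4.53 FPKM (0.242 to 0.702) and Irx3 at 1.61 (0.338 to 0.547). Its myelin genes were high as well, with Mobp at 26.0 FPKM (0.0417 to 2.02), Hapln2 at 3.52 (0 to 0.305) and Mal at 18.6 (3.58 to 5.62). Ptch1 was at 343 FPKM (142 to 197), Myb at 18.8 (7.34 to 9.10) and Trp53inp1 at 70.3 (22.4 to 32.9), while Mycn was low at 50.3 (98.3 to 141).

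In hGFAP-Gnas 4, Gad2 was at 3.00 FPKM (1.08 to 1.17 in the other 3 low residual libraries of its model), Vamp1 at 52.7 (9.97 to 13.1), Prkar1b at 40.6 (22.2 to 24.0) and Cxcl10 at 6.29 (0 to 0.378). Its Car8 was low at 3.33 FPKM (8.96 to 10.6) and its Nes at 13.0 (30.7 to 34.5).

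hGFAP-Gnas 1 differed from the other 3 high residual libraries of its model in macrophage and astrocyte genes. Lyz2 was at 18.0 FPKM (453 to 652), Cd68 at 7.13 (54.3 to 79.3), Clec7a at 0.626 (11.8 to 16.7) and Cp at 13.7 (53.1 to 67.8). Hbb-b2 was higher at 3.70 FPKM (0.277 to 0.458), Hbb-b1 at 2.51 (0.264 to 0.443) and Prom1 at 12 (9.71 to 10.1).

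The remaining values were single ones. In hGFAP-Gnas 3, Shh was at 0.269 FPKM (0.0519 to 0.0645) and Trp53inp1 at 37.7 (19.9 to 21.4). In hGFAP-Gnas 5, Gnas was at 40.9 FPKM and listed at 0 in the other 3. In hGFAP-Gnas 6, Sufu was at 42.3 FPKM (33.6 to 34.1) and Clic6 at 2.94 (0.917 to 1.06). In hGFAP-Gnas 8, Enpp2 was at 274.9 FPKM (37.0 to 44.2) and Madd at 25.7, with 0 listed in the other 3. Otx2 was at 13.9 FPKM in Olig1-Gnas 3 (39.1 to 55.9), and Hbb-b1 at 2.14 in Olig1-Gnas 4 (0.654 to 1.06).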

How the results depend on the processing

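The 1550 genes between high and low residual tissue became 2513 (1389 higher, 1124 lower) with high residual at 100 FPKM or more, 304 in hGFAP-Gnas libraries alone, 111 in Olig1-Gnas libraries alone, 776 at an adjusted p under 0.01 and 794 with at least a 2-fold difference. Leaving out 1 library at a time gave 1075 (without hGFAP-Gnas 5) to 2428 (without hGFAP-Gnas 8). The cause was not tested, beyond the fewer libraries or stricter threshold of these settings. The share of higher genes, 89.0%, was 73.0% after quantile normalization. The test between models gave 0 to 1 genes when 1 library was left out. Counts against Ctrl ran from 3592 to 6510 in high and 7624 to 9600 in low residual tissue. Among single genes, Madd reversed to 0.47 with exact zeros as missing.

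With the replicate number as a block, 1264 genes were called, 584 higher and 680 lower, and A2m reversed (-0.27). Same-numbered libraries had correlations of -0.171 to 0.0333, and 0 of 8 numbers were over 0.1, so the numbers do not pair the animals. With no read counts used here, the precision of single low values is unknown.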
